A study of Zea mays with 9 samples.

Results

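A set of 132 maize gene models had their highest level at 6 days after pollination (DAP) and stood well above every other stage sampled. They were chosen from measured values, out of 110028 models in all. Here v is the CPM value, a read count scaled to library size, after TMM scaling, which fits each library on the bulk of its genes. A gene was taken when v at 6 DAP was at least 10 and v + 1 at 6 DAP was at least 3 times v + 1 at each of the other 7 stages. Because this choice fixes the peak, the levels below describe the genes and are no test of a peak. Fold changes are on the v + 1 scale unless a ratio of v is named. "Confined" is therefore a matter of degree: 40 of the 132 were below v = 1 in all 3 endosperm stages, whereas 30 had v of at least 1 at every stage.

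All material was the maize inbred B73, grown in a greenhouse and self-pollinated. Groups were whole kernels at 0 (unpollinated), 2, 3, 4 and 6 DAP, which hold maternal tissue and, once pollinated, embryo and endosperm, and dissected endosperm without embryo or pericarp, at 8, 10 and 12 DAP. Each stage was 1 biological sample. The 0 DAP sample had 2 technical replicates, here called a and b, whose counts were summed. There was no treatment, transgene or mutant. With 1 sample per stage no p-value can be given, and the intervals below cover counting error only, since reads are not independent molecules.

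Around 6 DAP the maize endosperm has become cellular and is differentiating, while the maternal nucellus that surrounds it is being broken down and the pericarp is still growing. Sucrose from the mother plant is cleaved and rebuilt on its way in, and raffinose-type sugars, sucrose carrying extra galactose, can be opened by alpha-galactosidases. Walls are loosened by endoglucanases in growing or degrading tissue and stiffened by lignin in others. Any of these tissues contributes RNA to a whole-kernel library, and in such bulk samples fewer cells of a type and less RNA per cell cannot be told apart.

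The libraries held from 17716275 to 40145710 counted reads, and the 6 DAP library was the deepest. At v = 10 a gene had 547 reads at 6 DAP, 191 at 8 DAP and 56.8 at 12 DAP, and 3 reads corresponded to v = 0.0549, 0.157 and 0.528. The summed v of 28 zein storage protein genes, markers of filling endosperm, was 1416 to 1542 at 0 to 4 DAP but 2.54 at 6 DAP and 13076 at 8 DAP, so zein reads were more frequent in the unpollinated and early kernels than at 6 DAP, against what their labels would give. The part of this in the levels below was not tested. With 0, 2, 3 or 4 DAP in turn not required, the same limits gave 139, 140, 150 and 230 genes. Of 13 named genes of the basal transfer layer, the nutrient-uptake cells of the endosperm, the summed v was 17.8 to 47.0 before 6 DAP, 1228 at 6 DAP and 6092 at 8 DAP. For 26 MADS-box genes of floral and maternal tissue it was 2136 to 2782 before 6 DAP, 3362 at 6 DAP and 529 at 8 DAP. The part of either in the 132 genes was not tested. The step from 6 to 8 DAP changed age and tissue together, which cannot be told apart.

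The 132 genes were 0.295% of the 44687 models that reached v = 1 in a library. For scale, 117 models, or 0.262%, differed at least 3-fold in either direction between the technical replicates of 0 DAP with the higher v at least 10, although the choice here asked for 7 such ratios at once. Of the 132 genes, 62 reached v = 1 at 0 DAP, and among these the log2 ratio of replicate a to b had an SD of 0.40 and ran from -1.10 to 0.87. This is technical spread within 1 sample, and the spread between biological samples was not measured. Together the 132 genes held 1.05% of reads at 6 DAP, against 0.0737% at 0 DAP, 0.196% at 4 DAP, 0.0738% at 8 DAP and 0.00482% at 12 DAP. Shares of reads depend on what else a library holds, and v depends on the scaling chosen.

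The level at 6 DAP ran from v = 10.2 to 665, with a median of 26.9. It was at least 100 in 19 genes and below 30 in 75. The ratio to the next highest stage ran from 3.03 to 15.4, with a median of 4.20, and was at least 5 in 44 genes and at least 10 in 15. For 66 genes the next highest stage was 4 DAP, for 25 it was 3 DAP, for 10 it was 2 DAP and for 7 the unpollinated kernel. For 24 it was an endosperm stage, 8 DAP in 8, 10 DAP in 12 and 12 DAP in 4.

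**Figure D1:**
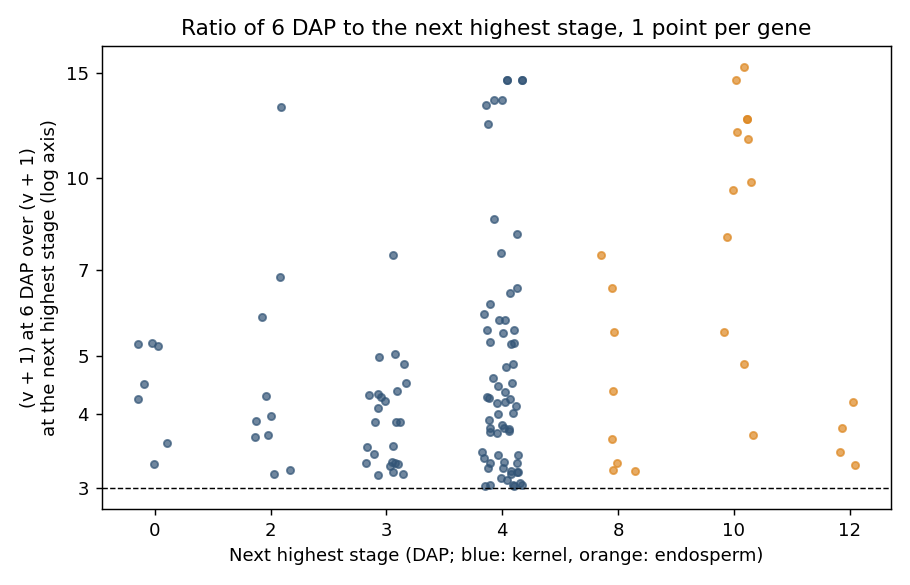
Ratio of v + 1 at 6 DAP to v + 1 at the next highest stage (vertical log axis) for each of the 132 genes, placed by that stage (horizontal axis); each point is 1 gene, and the dashed line is the limit of 3. The 66 genes next highest at 4 DAP cover the range from 3.03 to 14.6, and the ratio of 15.4 belongs to a gene next highest at 10 DAP.

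In 87 of the 132 genes, v at 4 DAP exceeded v at 0, 2 and 3 DAP, and in 36 v was higher at every step from 0 to 6 DAP. After 6 DAP, 102 had a lower v in 8 DAP endosperm than in 4 DAP kernels. These counts were not made over all detected models, and models with tied counts, described below, enter them more than once. No trait of the set is therefore read from them. The median v over the 132 genes was 0.823, 1.37, 2.53 and 3.81 at 0, 2, 3 and 4 DAP, 26.9 at 6 DAP, and 1.25, 1.45 and 0.528 at 8, 10 and 12 DAP. The median over all detected models stayed between 2.82 and 3.75 at the same stages.

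Against each stage in turn, most of the genes were also past a ratio of 4. Compared with unpollinated kernels, 126 of the 132 were at least 4-fold higher (1.98% of all detected models). Compared with 2, 3 and 4 DAP kernels the counts were 122 (1.35%), 112 (1.13%) and 96 (0.781%). Compared with endosperm they were 126 for 8 DAP (3.21%), 130 for 10 DAP (3.56%) and 126 for 12 DAP (4.85%). The choice used these same contrasts, so nothing is read from the counts. The median ratio was 5.70 to 4 DAP and 12.4 to 8 DAP.

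Of the 132 models, 58 had a record in the RefSeq table and 16 of these a gene name. The named genes are described by role, beginning with those of sugar metabolism. AGA1 (GRMZM2G340656), an alkaline alpha-galactosidase that releases galactose from raffinose-type sugars, had v = 19.8, 39.2, 44.7 and 83.3 at 0, 2, 3 and 4 DAP, 347 at 6 DAP, and 9.62, 30 and 5.10 at 8, 10 and 12 DAP. Its level climbed through the kernel series and was 4.13-fold above 4 DAP and 32.8-fold above 8 DAP (ratio of v to 4 DAP 4.17, 95% interval 4.00 to 4.35).

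Its relatives AGA3a (GRMZM2G050177) and AGA3b (GRMZM2G037265) had a different course before the peak. AGA3a had v = 20.9, 11.7, 4.33 and 8.40 at 0, 2, 3 and 4 DAP, 92.0 at 6 DAP, and 1.15, 4.59 and 3.87 in endosperm. AGA3b had 17.1, 8.29, 7.65 and 9.92, then 80.04, and 2.98, 9.06 and 11.1 in endosperm. Both were next highest in the unpollinated kernel, dipped after pollination and stood at 6 DAP 4.25-fold and 4.49-fold above 0 DAP, with ratios of v of 4.40 (95% interval 4.15 to 4.67) and 4.69 (95% interval 4.40 to 5.01). In the technical replicates AGA3a had 15.4 in a and 24.9 in b. AGA3a and AGA3b lie 4 genes apart in the RefSeq gene order, and as close relatives they may share reads.

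An AGA name was carried by 5 models, a family gathered after these values were seen, of which 3 are in the set by choice. The 2 outside it were also highest at 6 DAP under TMM and the 3 other scalings. They were GRMZM2G050273, a second model in the AGA3a record (v = 7.56 at 6 DAP and at most 2.94 elsewhere), and AGA2, with 3.77 at 6 DAP and 2.40 at 4 DAP. On the side of raffinose synthesis, the galactinol synthase gene gols2 had 2.54 at 6 DAP and 1.32 at 0 DAP, so it was not past the level limit.

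The gene sps1 (GRMZM5G875238) encodes sucrose-phosphate synthase, which rebuilds sucrose from its parts. It had v = 6.80, 16.6, 6.53 and 25.3 at 0, 2, 3 and 4 DAP, 103 at 6 DAP, and 12.4, 27.2 and 26.9 at 8, 10 and 12 DAP. At 10 and 12 DAP it stood near its 4 DAP level, and the next highest stage was 10 DAP (3.69-fold). The sucrose-phosphate phosphatase genes spp1 and SPP2, whose products act after it, had 21.4 and 0.659 at 6 DAP and were highest elsewhere under TMM (1 of the 2 was highest at 6 DAP by library total). Of 10 detected genes of sucrose transport and cleavage sps1 alone was among the 132. From the same list incw1 (GRMZM2G139300) had a ratio of 4.35 but v = 9.62 at 6 DAP, just below the level limit.

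Both genes named for thiazole synthesis, the branch that makes one ring of thiamine (vitamin B1), were in the set. The gene thi2 (GRMZM2G074097) had v = 24.7, 47.4, 35.9 and 34.6 at 0, 2, 3 and 4 DAP, 188 at 6 DAP, and 33.9, 11.2 and 2.99 in endosperm, a 3.90-fold step above 2 DAP (ratio of v 3.96, 95% interval 3.75 to 4.19). The gene thi1 (GRMZM2G018375) had 9.19, 26.0, 11.7 and 37.6, then 119, and 8.52, 4.65 and 6.33, and was 3.12-fold above 4 DAP. Its ratio was 2.94 with DESeq2 size factors and 2.85 by library total, below the limit of 3. The ratio of thi2 passed under every scaling tried. As near copies of each other they may also share reads.

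**Figure D2:**
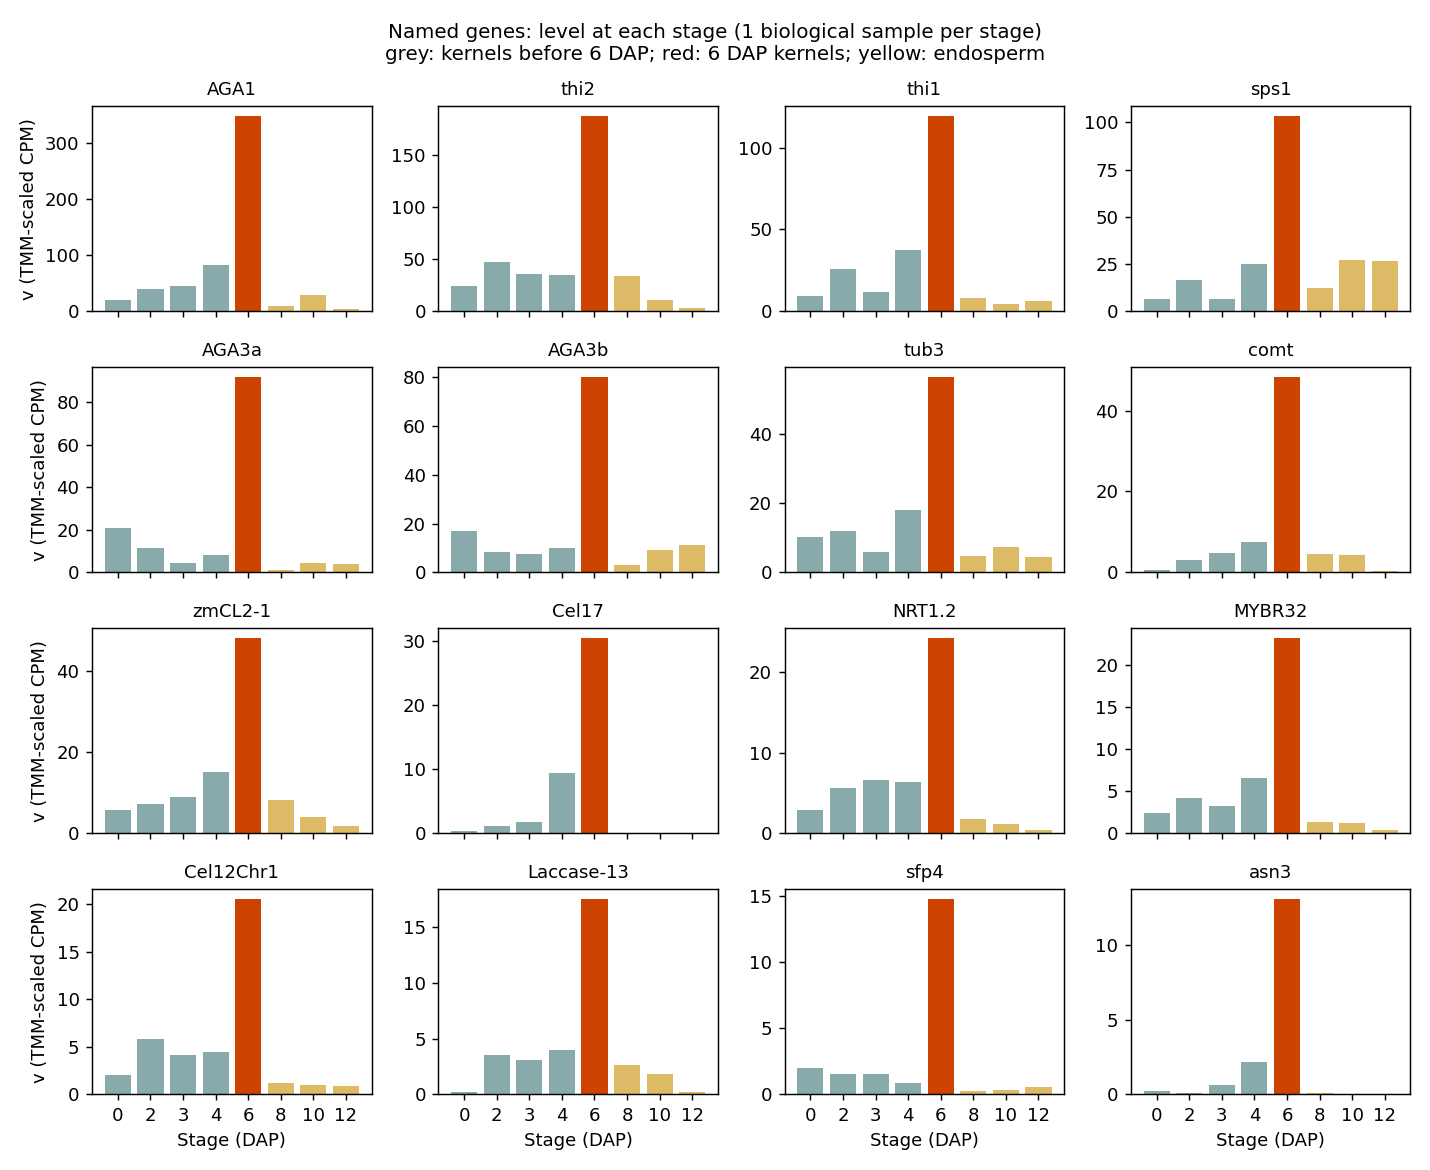
Level v (TMM-scaled CPM, vertical axes from 0, separate scales) of the 16 named genes at each stage in DAP; grey bars are kernels before 6 DAP, red bars 6 DAP kernels and yellow bars endosperm, with 1 biological sample per stage and hence no error bars. AGA3a and AGA3b have their second highest bar at 0 DAP, sps1 at 10 DAP, and Cel17 and asn3 have almost no signal in endosperm.

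Of the named genes, comt, Laccase-13, Cel17 and Cel12Chr1 belong to families that act on cell walls. The fixed lists of cell wall expansion (19 detected genes) and cell wall synthesis (14) held none of the set. With the set at 0.295% of detected models, nothing is read from this. The gene comt (GRMZM5G814904), an O-methyltransferase of lignin monomer synthesis, had v = 0.573, 3.06, 4.89 and 7.56 at 0, 2, 3 and 4 DAP, 48.3 at 6 DAP, and 4.65, 4.21 and 0.352 in endosperm. It was higher at every step to 6 DAP, where it stood 5.76-fold above 4 DAP (ratio of v 6.39, 95% interval 5.57 to 7.36). The laccase model GRMZM5G814718, named Laccase-13 as are 2 other models, belongs to the enzymes that oxidise lignin monomers in the wall. It had 0.206, 3.55, 3.06 and 3.95, then 17.5, and 2.67, 1.82 and 0.176, a 3.75-fold step above 4 DAP. The other Laccase-13 models did not exceed 1.96 at any stage.

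The rest of the lignin route stood less far above its other stages. Of 10 detected genes found by name after the values were seen, 9 had their highest v at 6 DAP under TMM and DESeq2 scaling and 7 by library total, comt among them by choice. Over all detected models the shares were 16.2%, 13.9% and 18.5%. No other of the 10 met the ratio of 3. The nearest was ccoaomt1, another O-methyltransferase of the route, with 47.6 at 4 DAP, 132 at 6 DAP and 16.2 at 8 DAP, a ratio of 2.74. PAL1, the entry enzyme, had 21.7, 33.1 and 0.836 at these stages, cad1 had 13.5, 15.9 and 0.261, and 4CL had 14.5, 18.1 and 2.30.

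A pair of endoglucanase genes, whose products cut beta-1,4-glucan chains of the wall, were in the set. Cel17 (GRMZM2G141911) had v = 0.294, 1.22, 1.74 and 9.38 at 0, 2, 3 and 4 DAP and 30.5 at 6 DAP, and in endosperm 0.0523 at 8 DAP, which is 1 read, and no read at 10 and 12 DAP. Cel12Chr1 (GRMZM2G178025) had 2.04, 5.79, 4.09 and 4.49, then 20.5, and 1.20, 0.943 and 0.880. Cel17 was higher at each step to 6 DAP and had 1 read over the 3 endosperm libraries, whereas Cel12Chr1 was nearly level from 2 to 4 DAP. The ratio of Cel17, 3.03, is at the edge of the choice and was 2.86 with DESeq2 size factors and 2.82 by library total, while that of Cel12Chr1 was 3.17. The other 5 detected Cel genes did not exceed 6.06 at any stage.

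The beta-tubulin gene tub3 (GRMZM2G108766), a building block of microtubules, had v = 10.3, 12.0, 5.92 and 17.9 before 6 DAP, 56.4 at 6 DAP, and 4.70, 7.42 and 4.57 in endosperm. Its ratio of 3.03 was also at the edge and was 2.86 with DESeq2 size factors and 2.79 by library total. None of the other 12 detected genes with a tubulin name passed: their ratios to the highest other stage ran up to 1.74, that of TUA1, and 6 of the 12 had their highest v at 6 DAP.

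Nitrogen handling was represented by asn3 and NRT1.2. The asparagine synthetase gene asn3 (GRMZM2G053669) had v = 0.220, 0.0658, 0.618 and 2.16 at 0, 2, 3 and 4 DAP, 13.1 at 6 DAP, 0.0523 at 8 DAP and no read at 10 and 12 DAP. It was 4.46-fold above 4 DAP, and at 8 DAP it rested on 1 read. Its relative AsnS1 stayed between 40.6 and 57.3 at all stages but 8 DAP, where it had 90.3, and AsnS2 did not exceed 1.64. NRT1.2 (GRMZM5G811593), of a family of nitrate transporters, had 2.89, 5.60, 6.65 and 6.31, then 24.3, and 1.78, 1.19 and 0.352, a 3.30-fold step above 3 DAP.

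MYBR32 (GRMZM2G088524), a MYB-related transcription factor, was the only member among 41 detected genes found as MYB factors, and it had v = 2.47, 4.18, 3.30 and 6.55, then 23.2, and 1.36, 1.26 and 0.352. The 18 other detected MYBR genes had ratios of at most 1.89. The model named sfp4 (GRMZM2G154211) had 2.00, 1.55, 1.53 and 0.877, then 14.8, and 0.261, 0.314 and 0.528, which is 5.27-fold above 0 DAP (ratio of v 7.40, 95% interval 6.16 to 8.94). MYBR32 and sfp4 also differed between the technical replicates, with 3.71 and 1.57 for MYBR32 and 2.97 and 1.29 for sfp4 in a and b. The model named zmCL2-1 (GRMZM2G005552) had 5.73, 7.11, 8.92 and 15.1, then 48.2, and 8.15, 4.09 and 1.76, and its ratio of 3.06 was 2.82 by library total. Thus thi1, tub3, Cel17 and zmCL2-1 left the set under DESeq2 size factors and by library total, and the other 12 named genes stayed.

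**Figure D3:**
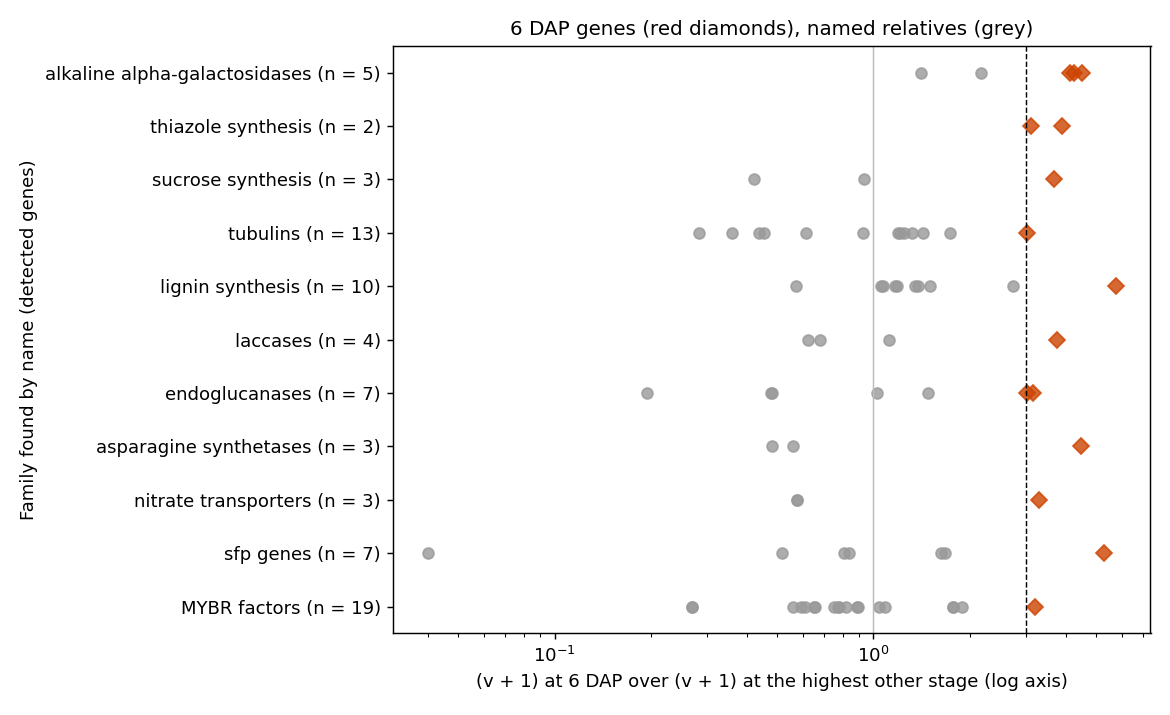
Ratio of v + 1 at 6 DAP to v + 1 at the highest other stage (horizontal log axis) for detected genes of the families that hold a named gene of the set; red diamonds are genes of the set, grey circles their named relatives, the dashed line is 3 and the grey line 1. The red diamonds lie above 3 by choice, and among the relatives the highest tubulin gene lies at 1.74 and the highest MYBR gene at 1.89.

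The most counted models of the set had no gene name in the table, so no role is given for them. GRMZM2G136364 had v = 3.48, 10.7, 41.6 and 103 at 0, 2, 3 and 4 DAP, 665 at 6 DAP, and 46.9, 9.18 and 1.58 in endosperm, higher at every step to 6 DAP and 13.9-fold lower at 8 DAP. GRMZM2G039538 had 0.749, 0.296, 1.94 and 87.9, then 511, and 116, 4.34 and 1.23. It was nearly absent until 3 DAP, and its next highest stage was 8 DAP endosperm (4.38-fold). GRMZM2G455793 had 40.2, 72.0, 119.5 and 90.4, then 424, and 102, 100.5 and 76.5, so it was present at every stage. GRMZM2G346455 had 28.0, 11.3, 32.5 and 38.6, then 227, and 10.2, 27.7 and 12.5.

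Other highly counted models differed mainly in what remained in endosperm. GRMZM2G042933 had 11.2, 21.2, 26.5 and 30.6 at 0, 2, 3 and 4 DAP, 126 at 6 DAP, and 1.25, 0.880 and 1.76 in endosperm. GRMZM2G123029 had 16.4, 26.1, 48.0 and 55.4, then 179, and 8.52, 3.08 and 1.06. GRMZM2G042933 was nearly gone after 6 DAP, whereas GRMZM2G123029 fell from 8.52 at 8 DAP to 1.06 at 12 DAP. GRMZM2G158205 had 14.5, 19.8, 22.6 and 45.7, then 226, and 13.3, 12.8 and 6.68. GRMZM2G073465 had 15.5, 21.6, 32.1 and 42.3, then 137, and 28.1, 28.9 and 15.3. In endosperm these were still between 6.68 and 28.9, while AC209206.3_FG014, with 36.5 at 4 DAP, 125 at 6 DAP and 38.2 at 8 DAP, was next highest in 8 DAP endosperm. GRMZM5G818709 had 0.147 at 0 DAP, no read at 2, 3 and 12 DAP, 7.83 at 4 DAP, 125 at 6 DAP, and 3.82 and 9.56 at 8 and 10 DAP, with a ratio of 11.9. Its counts are tied to those of another model, described below.

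Sorted by where v reached 1, the genes fell into several courses. In 55 genes v was at least 1 at every kernel stage, and all named genes belonged here except comt, Laccase-13, Cel17, sfp4 and asn3. In 17 it was below 1 at 0 DAP and reached 1 at 2 DAP, as in comt, Laccase-13 and Cel17. In 35 it was below 1 at both 0 and 2 DAP and at least 1 at 4 DAP, as in asn3. In 11 it reached 1 at 3 DAP but not at 0, 2 or 4 DAP. In 7 no other kernel stage reached 1, and 7 were mixed, sfp4 among them. A RefSeq record existed for 31 of the 55, 9 of the 17, 10 of the 35 and 1 of the 11, and over all 132 for 43.9%, against 59.7% of all models that reached v = 10 at 6 DAP. These groups were formed after the values were seen and are not tested.

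**Figure D4:**
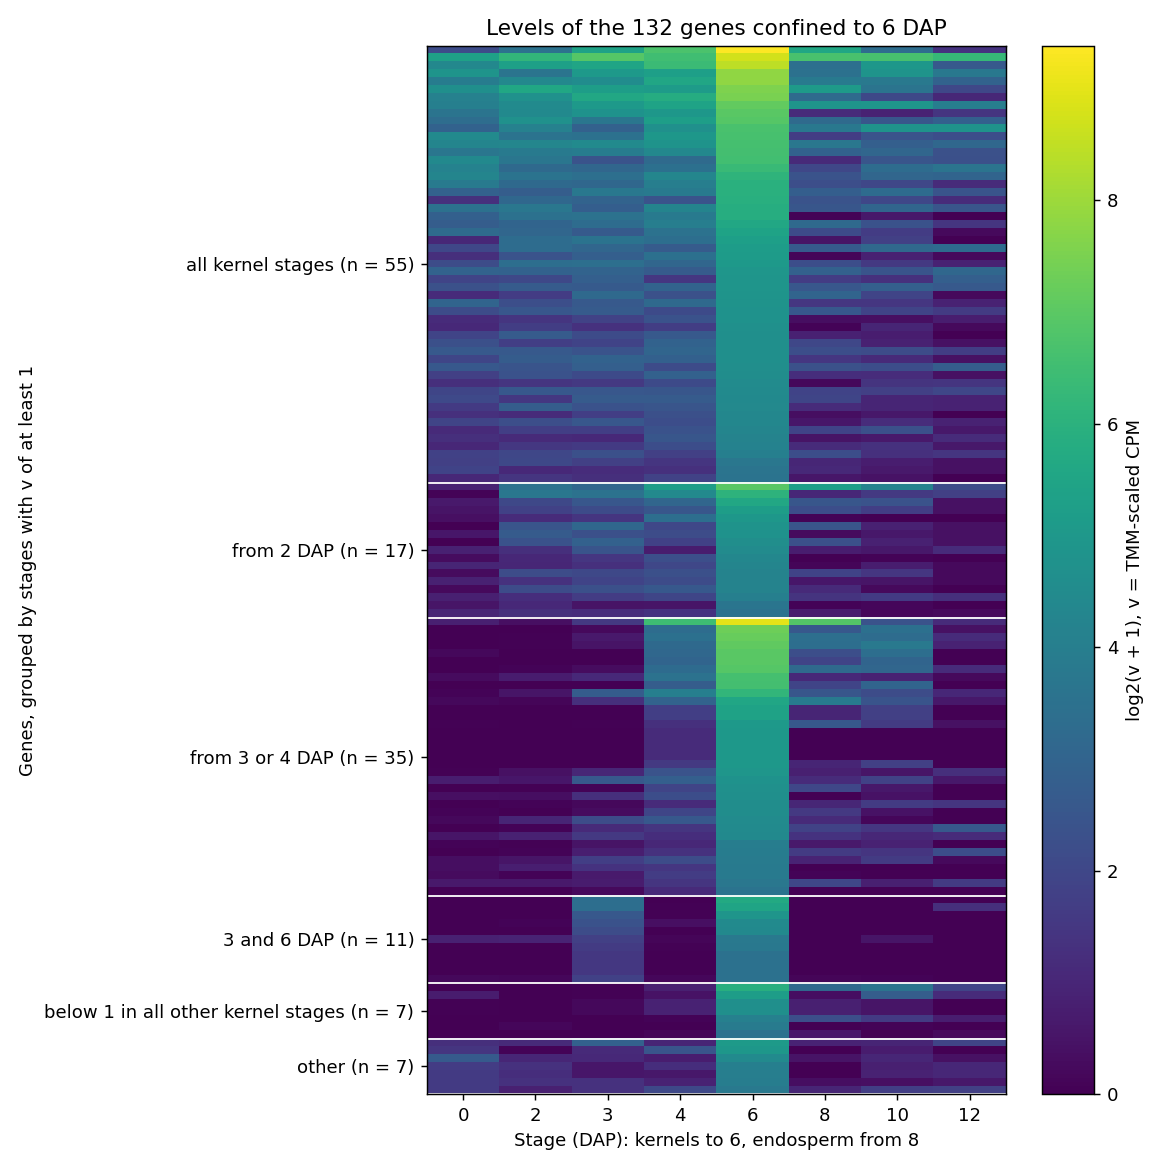
Level of each of the 132 genes (rows) at the 8 stages (columns), as log2(v + 1), brighter for higher; rows are grouped by the kernel stages at which v was at least 1 and sorted by the 6 DAP level within a group. The 6 DAP column is brightest in every row by the choice of genes, and the group of 11 has a second, fainter band at 3 DAP.

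The models below v = 1 at every other kernel stage differed in endosperm. GRMZM2G419421 had 760 reads at 6 DAP (v = 13.9), 4 at 2 DAP, 1 at 10 DAP and none in the other 6 libraries. Against 8 DAP, where it had no read, its v was at least 88.7-fold higher, taking 3 reads as the floor of that library. GRMZM2G137369 had v = 58.0 at 6 DAP, at most 0.776 in earlier kernels, and 8.05, 11.1 and 2.81 in endosperm. GRMZM2G381168 had 36.7 at 6 DAP, 5.85 at 10 DAP and at most 1.23 elsewhere. Its 0 DAP technical replicates differed, with 0.07 in a and 1.04 in b, so it was below v = 1 in a and with the pair summed, but not in b.

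Several of the largest ratios came from models whose counts are tied to each other. The largest outside such a set was that of GRMZM5G815477, which had 8697 reads at 6 DAP (v = 159), 269 at 4 DAP, 95 at 8 DAP and 158 at 10 DAP, with 0 reads at 0 and 2 DAP, and a ratio of 14.6. GRMZM2G524676 had 6810 reads at 6 DAP, 210 at 4 DAP, 54 at 8 DAP and 114 at 10 DAP, and the ratio of 15.4. GRMZM2G524678 and GRMZM2G524680 each had 2270, 70, 18 and 38 reads in these libraries, so GRMZM2G524676 had 3 times their reads in each of the 4. GRMZM2G482919 and GRMZM2G482905 stood in nearly the same relation, with 5131 and 1710 reads at 6 DAP and 174 and 58 at 4 DAP. GRMZM5G818709 had 232, 6842, 73 and 152 reads at 4, 6, 8 and 10 DAP. These are close to a whole multiple of the 58, 1710, 18 and 38 reads of GRMZM2G482905. GRMZM5G818709 also had 10 reads in 0 DAP replicate b, where GRMZM2G482905 had no read.

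A further 4 models, AC183757.3_FG001, GRMZM2G432470, GRMZM2G561724 and GRMZM5G815078, each had 1715 reads at 6 DAP, 36 at 4 DAP and none elsewhere. GRMZM2G358991 and GRMZM2G392885, which share 1 RefSeq record, had equal counts in all libraries, with 1335 reads at 6 DAP. Equal or exactly multiplied counts mean that these models are not separate measurements. With 1 model kept per such set, the 132 genes came to 123. Only equal counts, whole multiples within a narrow tolerance and shared records were merged. GRMZM5G818709 and models tied in other proportions still count as separate, so 123 is an upper limit on separate measurements.

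Several models had reads at 3 and 6 DAP and almost none elsewhere. GRMZM2G337994 had 320 reads at 3 DAP, 2816 at 6 DAP and no read in any other library. GRMZM2G340467 had 120 and 1150, AC191142.3_FG002 168 and 1569 with 1 read at 4 DAP, and GRMZM2G342701 72 and 690 with 1 read at 4 DAP. GRMZM2G516545, GRMZM2G530728 and GRMZM5G842789 had 64 and 557 reads each.

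Over all models with v of at least 3 at a stage, 13 had at least 95% of their summed v at 3 and 6 DAP with at least 10% in each, and 10 of the 13 belonged to the 132. Of the 28 pairs of stages, 10 and 12 DAP gave 193 such models, 0 and 2 DAP 24 and 6 and 8 DAP 12, while 2 and 3 DAP and 3 and 4 DAP gave none. The pairs 4 and 6, 6 and 10, and 6 and 12 DAP gave 5 each, 0 and 6 DAP gave 1 and 2 and 6 DAP none. Pairs without 6 DAP could not hold a gene of the 132, because the choice put its highest v at 6 DAP. Of the other pairs with 6 DAP, none held one. In the 10 genes v at 3 DAP was 16.8% to 24.6% of v at 6 DAP. None of them had a RefSeq record, and several had tied counts, so they are not 10 separate measurements. The 11th gene above v = 1 at 3 DAP, GRMZM2G417835, had 82 reads at 3 DAP and 708 at 6 DAP but also 27 at 2 DAP.

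**Figure D5:**
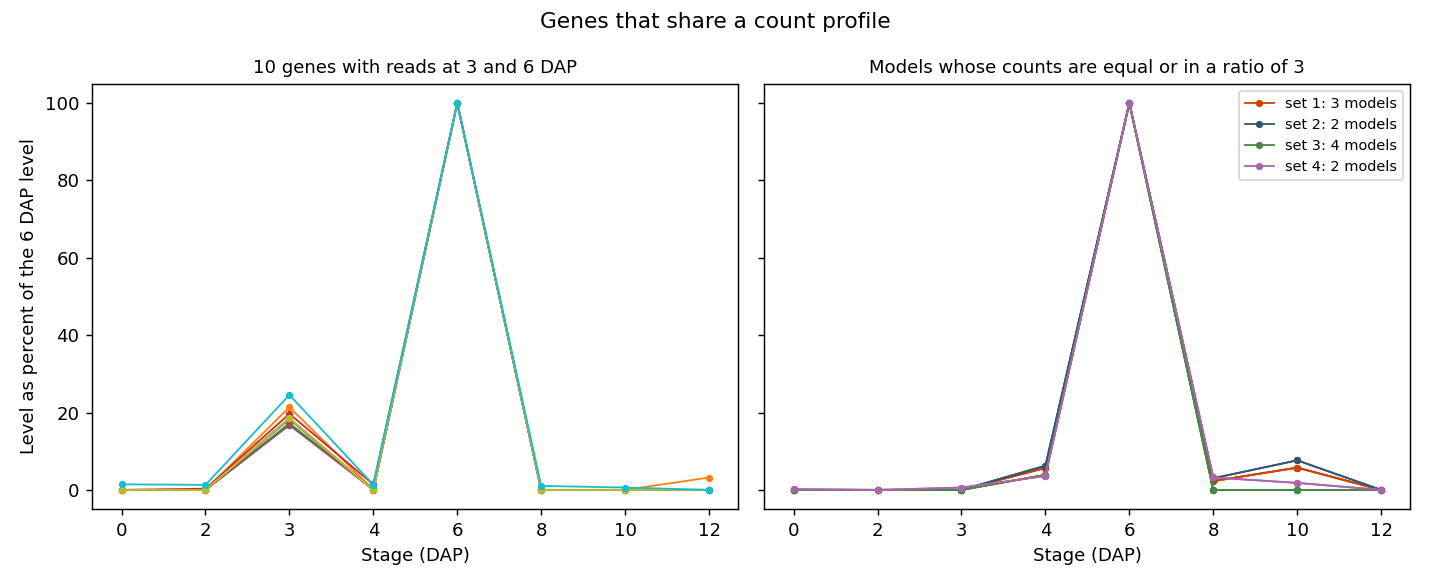
Level as a percentage of the 6 DAP level (vertical axis) at each stage in DAP for 10 genes with reads at 3 and 6 DAP (left) and for 4 sets of models with equal or 3-fold counts (right); each line is 1 model, and lines of a set overlie each other. The 3 DAP values on the left lie between 16.8% and 24.6%, and the sets on the right have small values at 4 DAP and, for 3 of them, at 8 and 10 DAP.

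The set can be placed between neighbouring groups of genes. Of the 44687 detected models, 325 reached v = 10 at 6 DAP and were at least 3-fold above each earlier kernel stage. Of these 325 the 132 are 40.6%. The other 193 were not 3-fold above every endosperm stage, among them 12 of the 13 named genes of the basal transfer layer, and none of these 13 was in the set. In addition, 1446 of the 44687 reached v = 10 at 6 DAP and were at least 3-fold above each endosperm stage, of which the 132 are 9.13%. Of the 26 MADS-box genes 14 were among these 1446, and none was 3-fold above the earlier kernels. No gene of the aleurone, zein, heat shock or clock lists, and none of 31 jasmonate and lipoxygenase genes, was in the set. The list for the embryo-surrounding region held only 3 models, found by the names ae1 and ae3, and none was in the set. As 1 of them, GRMZM2G032628, was also named SBE1 in the starch synthesis list, nothing is read from it about that region. As the set was 0.295% of detected models, short lists would mostly hold none of it, and nothing is read from a list without a member. Lists covered named genes only, so they do not speak for models without a name.

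In the RefSeq gene order, which the choice did not use, 5 of 58 records of the set (8.62%) had another one within 10 genes, against 194 of 8339 records (2.33%) of other models that reached v = 10 at 6 DAP. The pairs were AGA3a with AGA3b and GRMZM2G147014 with GRMZM2G165530, 10 genes apart, and with GRMZM2G074053, 9 genes apart. GRMZM2G147014 had v = 96.6 at 6 DAP and at most 27.6 elsewhere, GRMZM2G074053 had 60.3 and at most 13.4, and GRMZM2G165530 had 26.7 and at most 5.46. The 5 records behind the 8.62% are few, and no test is attached.

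The limits of the choice cut through a continuum. Just inside the ratio of 3 were GRMZM2G400173 (3.03), Cel17, tub3, GRMZM5G882025 (3.04) and GRMZM2G178847 (3.04). Just outside were GRMZM2G087186 (3.00, with v = 312 at 6 DAP and 103 at 4 DAP), GRMZM2G133394 (3.00), GRMZM2G429994 (2.99), GRMZM5G845475 (2.99) and GRMZM5G896796 (2.99). Just inside the level of 10 were 4 models at v = 10.2 and GRMZM2G138770 at 10.3, and just outside were GRMZM2G074664 at 9.70, GRMZM2G139300 at 9.62, GRMZM2G167287 at 9.59, and GRMZM2G047139 and GRMZM2G514605 at 9.57.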

How the data were processed

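RNA was poly(A)-selected 2 times and sequenced on a SOLiD 4 instrument, per the labels' protocols, from 1 of 3 biological replicates collected at each stage. The authors deposited raw read counts per gene model for each library. The submitters' processing notes name bedtools without a version. The aligner, genome build, annotation, use of strand and handling of reads with more than 1 match were not given in the sources used here. Antisense or overlapping genes and near-identical copies therefore cannot be told apart.

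From these counts, effective library sizes were computed by TMM in edgeR 4.0.16 (R 4.3.3), and v is CPM on that size, with counts and sizes of the 0 DAP pair summed. The rule of choice also left out 5 identifiers. Ratios of v carry exact conditional binomial 95% intervals, which cover counting error only. Where a library held no read, the fold is a bound against 3 reads in it. Gene names and gene order, without coordinates, came from RefSeq (assembly Zm-B73-REFERENCE-NAM-5.0). Protein and promoter sequences were not used here, so gene order is the only sequence feature given.

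Genes were named by this rule: all of the set with a usable symbol, the 15 with the highest v at 6 DAP, the 15 with the largest ratio, 5 on either side of each limit, and those sharing counts or a place. The members and gene lists were chosen with earlier results of these data known. The families, the courses over stages, the pairs of stages and the multiples of 8 were chosen after seeing the values. The rule was tested on simulated counts. As alternatives, scaling used DESeq2 1.42.0 (factors set to the mean effective size) or library totals, the latter also without the 100 most counted models. Others were a pseudocount of 0.1, other limits, counts thinned to the smallest library (seed 7, TMM factors kept), 1 technical replicate, and 1 stage not required. Further software was Python 3.11.15, numpy 2.4.6, pandas 2.3.3, scipy 1.17.1 and matplotlib 3.10.9.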

Additional observations from a re-analysis of the deposited data

How the results depend on the processing

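The number of genes depended mainly on the limits. It was 214 with no level minimum, 57 with a minimum of 30, 377 at a ratio of 2, 73 at a ratio of 4 and 230 when 4 DAP was not required, against 132. It was 115 with DESeq2 size factors, 186 by library total, of which 119 are among the 132, and 174 without the 100 most counted models, with 121 shared. With either technical replicate left out it was 130 to 133, 139 with thinned counts and 157 with a pseudocount of 0.1. Of the 132 genes 111 met the rule under the 3 other scalings and 108 under all 7 alternatives of scaling, pseudocount, thinning and single replicates. Over the models with v of at least 1 at a stage, the median log2 ratio of 6 to 12 DAP was 1.89 by library total. Under TMM it was 0.18, so endosperm levels relative to 6 DAP depend on the scaling. With 1 model per set of equal or multiple counts, chosen after seeing the data, 123 remained, an upper limit because other ties were not merged. With 8, 10 or 12 DAP not required it was 162, 138 and 138. The 16 named genes had 112 ratios under 7 alternatives. In none did another stage become highest, which was unlikely from the start for genes chosen at a ratio of 3. Leaving out a 0 DAP replicate changed only the ratios of AGA3a, AGA3b and sfp4, the named genes next highest at 0 DAP. For the other named genes those alternatives are no check. Of the 112 ratios, 14 were below 3. These were the 3 scalings of thi1, tub3, zmCL2-1 and Cel17, and thinned counts for Cel17 and Cel12Chr1. No paired analysis was possible because each stage had 1 biological sample and only 0 DAP a second library. Depth limits absence most at 12 DAP, where 3 reads are v = 0.528.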

Other observations

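In 8 of the 10 genes with reads at 3 and 6 DAP the 3 DAP count was a multiple of 8 (40 times 8 in GRMZM2G337994, 15 times in GRMZM2G340467 and 8 times in GRMZM2G516545), against 13.1% of the 31598 models with at least 40 reads at 3 DAP. This was noticed after the counts were seen, 3 of the 8 models have equal counts, and the cause was not tested. Reads at 3 and 6 DAP also stood in a fixed proportion between GRMZM2G340467 (120 and 1150) and GRMZM2G342701 (72 and 690). So did those of AC191142.3_FG002 (168 and 1569) and GRMZM2G514605 (56 and 523). GRMZM2G331112 (320 and 2408) and GRMZM2G501186 (48 and 361) came close to this. The 8 models are therefore not 8 separate cases. The exceptions to the multiple of 8 were GRMZM2G330035 with 143 reads and GRMZM2G501191 with 85. Of 3 models of the same course outside the set, GRMZM2G514605 had 56 reads at 3 DAP and 523 at 6 DAP, GRMZM2G501186 had 48 and 361, and GRMZM2G100776 had 94 and 381.

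A further 4 unnamed models, picked after their values were seen, had a course like that of GRMZM5G815477 and GRMZM5G818709. GRMZM2G069820 had v = 10.2 at 4 DAP, 147 at 6 DAP, 9.83 at 8 DAP and 9.06 at 10 DAP. GRMZM2G069698 had 8.30, 135, 9.46 and 12.8, GRMZM2G000679 had 8.67, 118, 8.57 and 7.55, and GRMZM2G112855 had 1.21, 23.5, 0.993 and 2.08. Their counts were not multiples of each other, and none had a RefSeq record.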
